A study of Bos taurus with 6 samples.

Results

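Matrix proteases and their inhibitors were taken from the mRNA counts of cattle intramuscular fat (IMF) as the genes whose symbol is MMP, TIMP, ADAM, ADAMTS or ADAMTSL followed by a number. This rule uses names only, and 67 of the 25444 genes in the table met it. They comprise 20 MMP, 4 TIMP, 21 ADAM, 18 ADAMTS and 4 ADAMTSL genes. Reads were counted on 58 of them in at least 1 library, on 45 with at least 10 counts over both libraries, and 9 had no count.

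The fat was dissected from the sternomandibularis, a neck muscle, of male Qinchuan cattle, a Chinese breed, at 24 months of age. The animals were offspring of a single sire, kept on a common diet and weaned at 3 months. Steers (CM in the labels) had been surgically castrated at 6 months and bulls (IM) were left intact. RNA of each group was pooled into 1 Ion Proton library, from 6 animals per pool by the paper and the series design and from 3 by the sample labels. The libraries held 12677375 counts in steers against 9868415 in bulls.

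MMPs are zinc endopeptidases that cut collagens, gelatin and other matrix proteins, and TIMPs are the tissue inhibitors that bind their active sites. ADAMs sit in the cell membrane, where several of them release the outer parts of growth factors, cytokines and receptors. ADAMTS enzymes are secreted proteases with thrombospondin repeats that trim procollagens and proteoglycans, whereas ADAMTSL proteins share the repeats and lack a protease domain. In fat, these genes are known for the remodelling of the collagen scaffold around adipocytes and their precursors.

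Size factors from medians of ratios were 1.04 for the steers library and 0.959 for the bulls library, and a normalised read count is the raw count divided by this factor. A log2 fold change is the normalised count in steers over that in bulls, and values given with "at" below are such changes. The 95% Clopper-Pearson interval of a log2 fold change treats reads as independent draws and covers counting error only. Reads are not independent molecules, so this interval may be too narrow even for counting error. A gene was called at an absolute log2 fold change over 1 and an adjusted p under 0.05 in an exact binomial test of its pair of counts (two-sided, Benjamini-Hochberg over 17752 genes with a count). Each group had 1 pooled library and thus no replicate, so the test sets 1 library against the other and not castrated against intact animals. Levels are not compared between genes, since transcript lengths were not used here and longer transcripts give more reads.

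Of the 58 members with a count, 6 were called higher in steers and 8 lower. Over all genes with a count, 4.37% were called higher, 8.13% lower and 12.5% in either direction, and the members' shares were 10.3%, 13.8% and 24.1%. These calls over all genes were 776 higher and 1444 lower, a split that became 539 and 2006 with total counts as the scaling. The genes called higher were MMP15, MMP23B, ADAM12, ADAMTS9, ADAMTS16 and ADAMTS17. The genes called lower were MMP3, MMP19, MMP24, MMP25, ADAM8, ADAMTS5, ADAMTS8 and ADAMTS20. Among the 34 members with at least 100 counts over both libraries, 6 were called higher and 3 lower, where 3.3% and 6.67% of all genes of that depth were called, or 9.97% in either direction, against 26.5% of the members. All 6 genes called higher thus had at least 100 counts, compared with MMP19, ADAM8 and ADAMTS5 among those called lower. The median log2 fold change of the members with a count was 0.20, and 0.22 with counts of 0 moved to a floor of 3, beside 0.01 and -0.01 for all genes with a count. If the pools varied with a biological coefficient of variation of 0.4, which is an assumption, an edgeR exact test called only ADAMTS16 and MMP3 of the members. With an assumed 0.2 it called 10 of the 14, without MMP23B, MMP24, ADAMTS17 and ADAMTS20.

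**Figure D1:**
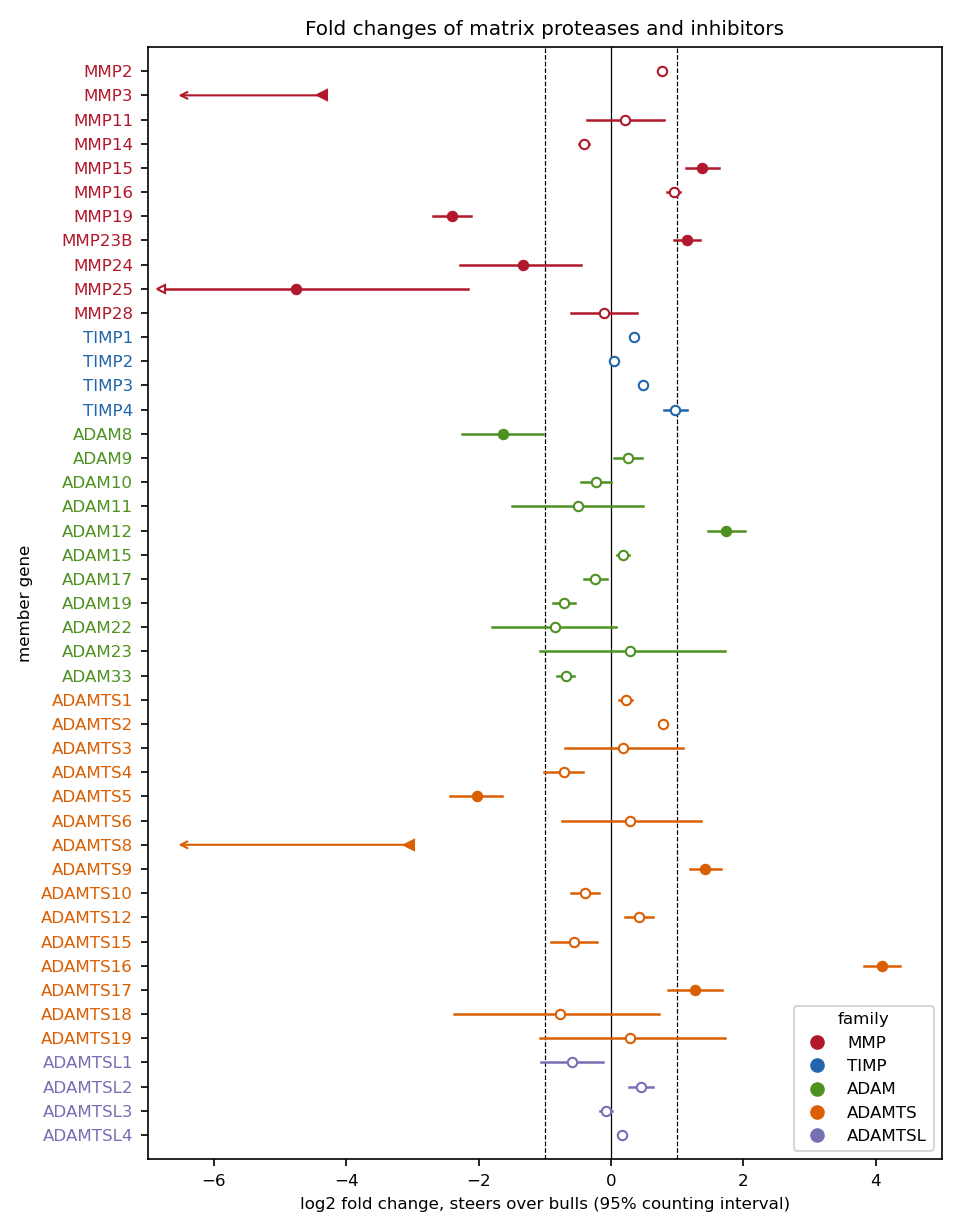
Log2 fold changes (steers over bulls, horizontal axis) of the 45 members with at least 10 counts over both libraries, with 95% counting intervals, coloured by family. Filled points were called and open points were not, and dashed lines mark 2-fold. Solid triangles with arrows mark genes at 0 in steers, placed at their value against a floor of 3 counts and drawn without an interval. They do not mark lower bounds, since the intervals reach up to -4.02 for MMP3 and -2.65 for ADAMTS8. The interval of MMP25 runs past the left edge, and ADAMTS16 lies farthest to the right at 4.09.

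MMP2, the gelatinase that cuts denatured collagen and basement membrane collagen, had 49993 counts in steers against 26945 in bulls. The log2 fold change came to 0.77 (95% interval 0.75 to 0.79), so it was higher in the steers library by 1.70-fold and stayed under the 2-fold threshold. It held 88.3% of the MMP counts in steers and 83.2% in bulls. The other gelatinase, MMP9, which neutrophils and macrophages are known to release, had 2 and 4 counts. None of the collagenases MMP1, MMP8 and MMP13 had a count in either library, which allows up to 3 counts in each library.

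Among the stromelysins and matrilysins, MMP3 was the gene that was called. MMP3, an activator of other MMP proenzymes, had 0 counts in steers against 57 in bulls. With 3 counts as the floor of the steers library and the bulls count held fixed, the difference was 20.7-fold. This is not a lower bound, since the counting interval of the log2 fold change of MMP3 reached up to -4.02, a smaller difference. MMP11 had 58 and 46 counts, with a log2 fold change of 0.21 (-0.37 to 0.80), and MMP7 had none. MMP12, the macrophage elastase, had 3 counts in steers against 2 in bulls, too few to show a difference at this depth.

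The membrane-bound MMPs went different ways. MMP15 had 541 counts in steers against 191 in bulls, at a log2 fold change of 1.38 (1.14 to 1.63). MMP16 lay just under the threshold with 2710 and 1291 counts and 0.95 (0.85 to 1.04). MMP14, which activates pro-MMP2 at the cell surface in a complex with TIMP2, had 2300 and 2805 counts, at a log2 fold change of -0.41 (-0.49 to -0.33). Thus MMP15 was called higher, while MMP14 was lower by less than 2-fold. MMP24 had 16 counts in steers against 37 in bulls and was called lower at -1.33 (-2.28 to -0.45). MMP25, known from leukocytes and also called leukolysin, had 1 and 25 counts, and its log2 fold change of -4.77 had an interval of -10.1 to -2.16. MMP17 had 5 and 1 counts. In the RefSeq table of cattle genes (ARS-UCD2.0) MMP14 overlaps RBM23, which had 508 and 482 counts, and MMP24 overlaps MMP24OS, which was not analysed here.

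Of the remaining MMPs, MMP23B was called higher and MMP19 lower. MMP23B, an unusual member that is anchored near its amino end, had 765 counts in steers against 317 in bulls and was at 1.15 (0.96 to 1.34), though with total counts it was at 0.91 and not called. MMP19, which is found in many tissues and in blood mononuclear cells, had 120 and 582 counts. At -2.40 (-2.70 to -2.11) its level in steers was 5.28-fold lower. MMP28 had 71 and 70 counts, so no difference was detectable, with an interval of -0.60 to 0.40. MMP20 and MMP27 had 1 and 6 counts over both libraries.

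**Figure D2:**
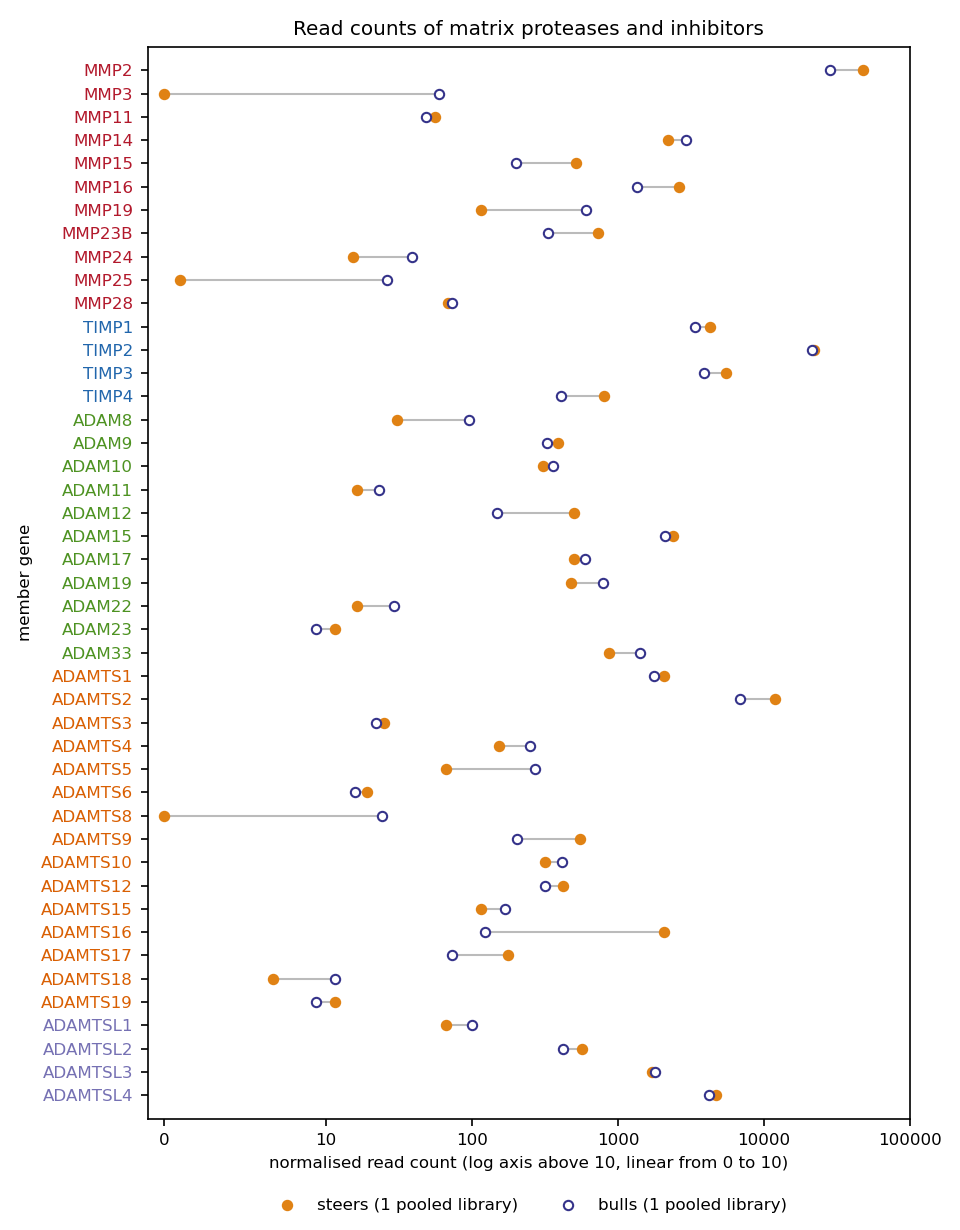
Normalised read counts (horizontal axis, logarithmic above 10 and linear below) of the 45 members with at least 10 counts over both libraries, with 1 filled point for the pooled library of steers and 1 open point for that of bulls per gene. MMP3 and ADAMTS8 sit at 0 in steers, and the wide gap of ADAMTS16 spans 122 in bulls to 2077 in steers.

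All 4 TIMP genes were abundant in counts and none was called. TIMP2, which both inhibits MMPs and takes part in the activation of pro-MMP2, had 22961 counts in steers against 20373 in bulls. Its log2 fold change of 0.05 (0.02 to 0.08) became -0.19 with total counts as the scaling. TIMP1 had 4444 and 3212 counts, at a log2 fold change of 0.35 (0.28 to 0.41). TIMP3, the matrix-bound inhibitor that also blocks ADAM17 and the aggrecanases, had 5690 and 3733 counts and 0.49 (0.43 to 0.55). TIMP4 came nearest to the threshold, with 834 and 391 counts and 0.97 (0.80 to 1.15), next to MMP16 outside it and MMP23B inside it. In the same table, TIMP2 overlaps CEP295NL, which was not analysed here, and TIMP1, TIMP3 and TIMP4 overlap the synapsin genes SYN1, SYN3 and SYN2. The synapsins held few counts beside the inhibitors, with 11 against 14 (steers against bulls) for SYN1, 9 against 4 for SYN3 and 35 against 13 for SYN2.

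Ratios of members within a library do not depend on the scaling, and the pairs given here were chosen after their values were seen. There were 1.67 counts of all MMPs per count of all TIMPs in steers and 1.17 in bulls. Without MMP2 these ratios were 0.194 and 0.196. The ratio of MMP2 to TIMP2 counts was 2.18 in steers and 1.32 in bulls, a log2 difference of 0.72 (95% interval from counting error 0.68 to 0.75). The ratio of MMP14 to TIMP2 went the other way, with a log2 difference of -0.46 (-0.54 to -0.37). That of MMP15 to MMP14 was 0.235 in steers and 0.0681 in bulls, a log2 difference of 1.79 (1.54 to 2.04). Summed over families, the log2 fold change was 0.68 (0.66 to 0.70) for MMP, 0.17 (0.15 to 0.19) for TIMP, 0.76 (0.72 to 0.79) for ADAMTS, 0.11 (0.06 to 0.16) for ADAMTSL and -0.09 (-0.14 to -0.03) for ADAM. With total counts as the scaling, the sums of TIMP and ADAMTSL turned to -0.07 and -0.13, and without MMP2 the MMP sum was at 0.16.

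**Figure D3:**
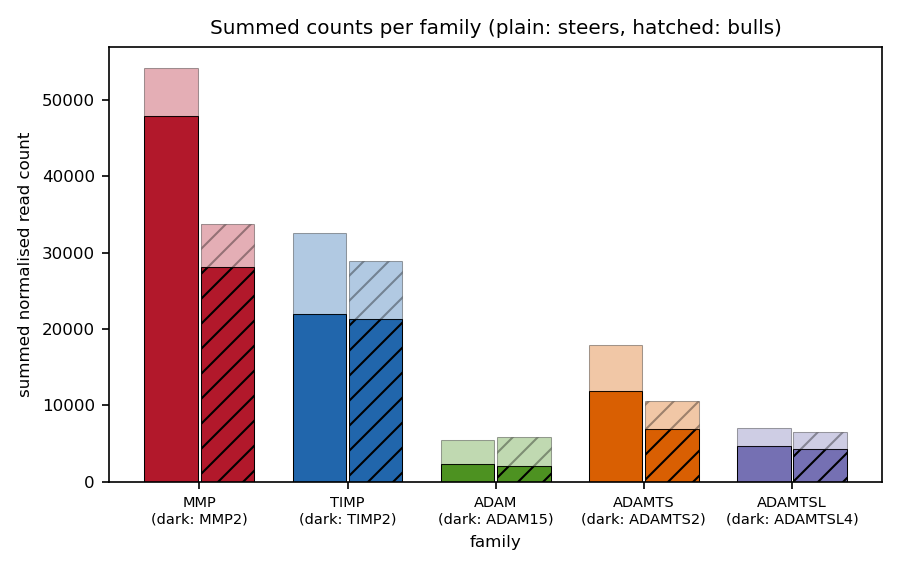
Summed normalised read counts (vertical axis, from 0) of the 5 families in the pooled libraries of steers (plain bars) and bulls (hatched bars), with the member of most counts in the dark part. The difference in the MMP bars lies largely in MMP2, which had 47920 normalised counts in steers against 28110 in bulls.

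For the ADAM sheddases, ADAM12 was called higher in steers and ADAM8 lower. ADAM12, also called meltrin alpha and known from muscle and adipose development, had 520 counts in steers against 143 in bulls. The log2 fold change came to 1.74 (1.47 to 2.02), or 3.34-fold. ADAM8, a leukocyte protease, had 32 and 91 counts, at a log2 fold change of -1.63 (-2.26 to -1.03). In the RefSeq table ADAM8 overlaps SORCS3, which had 19 and 8 counts, and whether reads were counted by strand is not given in the sources used here. ADAM10, which cuts Notch receptors, had 318 and 343 counts and ADAM17, which releases tumour necrosis factor, had 524 and 569. They were at -0.23 (-0.46 to -0.01) and -0.24 (-0.42 to -0.07) and neither was called. The ratio of ADAM10 to ADAM17 counts was 0.607 in steers against 0.603 in bulls, and the interval of its log2 difference ran from -0.27 to 0.29.

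The other ADAM genes stayed under 2-fold or were scarce. ADAM15 had the most counts of the family, 2484 in steers and 2012 in bulls, at a log2 fold change of 0.18 (0.10 to 0.27) that turned to -0.06 with total counts. ADAM33 had 910 and 1346 counts and -0.69 (-0.81 to -0.56). ADAM19, which is closely related to ADAM12, had 499 and 751 counts and -0.71 (-0.88 to -0.55). The ratio of ADAM12 to ADAM19 was therefore 1.04 in steers and 0.190 in bulls. ADAM9 had 405 and 312 counts, at a log2 fold change of 0.25 (0.04 to 0.47). ADAM11 and ADAM22, members without protease activity, had 17 counts each for steers against 22 and 28 for bulls, and both intervals include 0. The sperm gene ADAM2 had 7 counts in steers against 0 in bulls and was not called (adjusted p = 0.0537 in the exact binomial test). ADAM7, ADAM18, ADAM21, ADAM28 and ADAM30 had no count.

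ADAMTS16, a secreted protease reported to cut fibronectin, had the largest fold change among the members with counts in both libraries above 10. It had 2167 counts in steers against 117 in bulls, which is 17.0-fold. ADAMTS17, which is linked to inherited short stature, had 183 and 70 counts, at a log2 fold change of 1.26 (0.86 to 1.68). The other ADAMTS genes outside the classes described next, ADAMTS6, ADAMTS10, ADAMTS18 and ADAMTS19, were not called. ADAMTS10 had the most counts of them, 327 in steers and 394 in bulls, with -0.39 (-0.61 to -0.18).

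The ADAMTS genes that cut versican and aggrecan, the large proteoglycans, moved in both directions. ADAMTS9 was called higher, with 569 counts in steers against 195 in bulls, at 1.42 (1.19 to 1.66). ADAMTS5, an aggrecanase, was called lower, with 69 and 259 counts and -2.03 (-2.44 to -1.64), a 4.09-fold difference. ADAMTS8 had 0 counts in steers against 23 in bulls and was called lower. With the same floor and the bulls count held fixed, the difference was 8.34-fold. The counting interval of its log2 fold change reached up to -2.65, a smaller difference. ADAMTS20 had 0 and 9 counts and was called with an adjusted p of 0.0086 in the exact binomial test. By the same floor ADAMTS20 was 3.27-fold lower, with a counting interval that reached up to -1.10 in log2 fold change. It overlaps LOC534627 in the RefSeq table, which had 230 and 157 counts. ADAMTS1 had 2152 and 1699 counts, at a log2 fold change of 0.22 (0.13 to 0.31), or -0.02 with total counts. ADAMTS4 and ADAMTS15 were lower by less than 2-fold, with 159 and 120 counts for steers, 240 and 162 for bulls, and values at -0.72 and -0.56. Summed over the 7 proteoglycan-cutting genes the log2 fold change was 0.12 (0.05 to 0.20) and turned to -0.11 with total counts, with ADAMTS1 holding most of the counts.

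ADAMTS2, the procollagen N-propeptidase whose loss causes dermatosparaxis, the fragile skin disease of cattle, had the most counts of its family. It had 12411 counts in steers against 6597 in bulls, at a log2 fold change of 0.79 (0.75 to 0.83), and it was not called. Its relatives ADAMTS3 and ADAMTS14 had few counts, 26 and 2 for steers against 21 and 7 for bulls. ADAMTS12, which cuts cartilage oligomeric matrix protein, had 439 and 302 counts and 0.42 (0.20 to 0.63). ADAMTS13, the protease of von Willebrand factor and chiefly a liver gene, had 5 counts in steers against 0 in bulls.

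The 4 ADAMTSL genes were not called. ADAMTSL4, a fibrillin-binding protein, had 4921 and 4045 counts, at a log2 fold change of 0.16 (0.10 to 0.22), which was -0.08 with total counts. ADAMTSL3 had 1772 and 1718 counts and -0.08 (-0.17 to 0.02). ADAMTSL2, a component of the microfibril network, had 594 and 399 counts and 0.45 (0.27 to 0.64). ADAMTSL1 had 69 and 95 counts and -0.58 (-1.05 to -0.12).

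Position in the genome was compared through the RefSeq table, in which 64 members were found by symbol and 1, MMP23B, by a synonym. There, 10 pairs of members are next to each other among protein-coding genes. ADAMTS5 is next to ADAMTS1, and the ratio of ADAMTS1 to ADAMTS5 counts was 31.2 in steers and 6.56 in bulls, a log2 difference of 2.25 (1.86 to 2.64). ADAMTS8 is next to ADAMTS15, and while ADAMTS8 had no count in steers, ADAMTS15 kept 120. In the MMP cluster, MMP13, MMP12, MMP3 and MMP1 follow each other, and MMP3 was the sole gene of these with more than 10 counts in either library. MMP8, MMP27, MMP20 and MMP7 also follow each other, and none of them exceeded 6 counts.

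**Figure D4:**
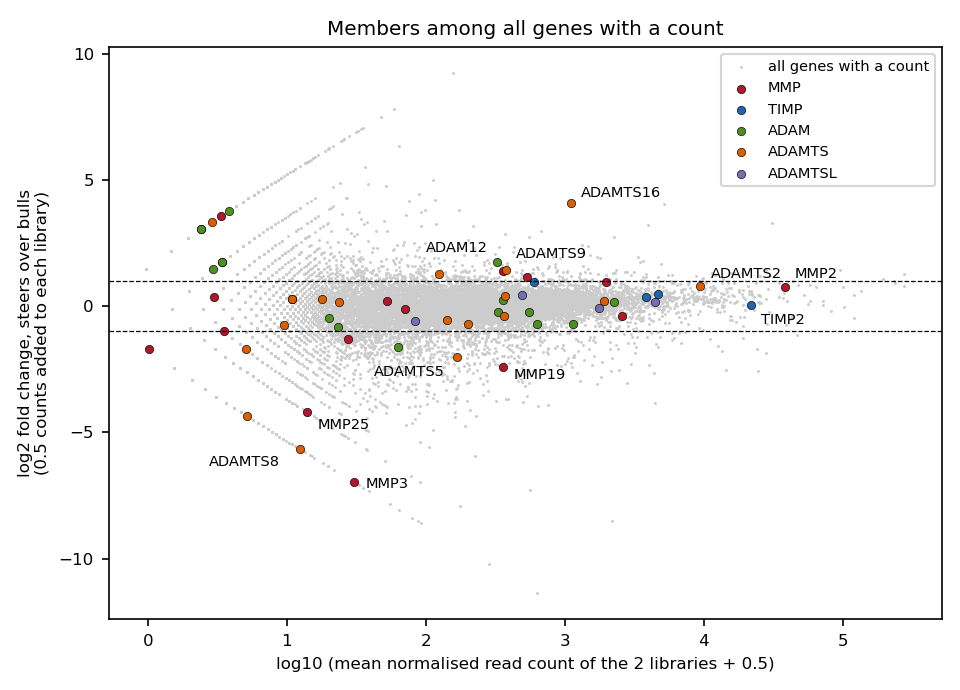
Log2 fold change (steers over bulls, vertical axis, 0.5 counts added to each library) against the log10 mean normalised read count of the 2 libraries plus 0.5 (horizontal axis) for all 17752 genes with a count (grey) and the members (coloured by family). The dashed lines mark 2-fold; ADAMTS16 stands above the other members of its depth, and MMP3, MMP25 and ADAMTS8 lie at low counts.

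Markers of other cells moved between the same libraries, and their part in the members' values was not tested. In bulk tissue, fewer cells of a type and less RNA per cell cannot be told apart. The shares over all genes with a count were 4.37% called higher and 8.13% called lower. Of 8 macrophage markers in the table, all 8 were below 0 in log2 fold change and 6 were called lower in steers, with sums of 20348 counts in steers against 42525 in bulls. All 7 T lymphocyte markers were called lower, with 109 and 755 counts, and CD3G was at 0 in steers. Of the members described here as known from leukocytes or macrophages, MMP25 and ADAM8 were called lower in steers. MMP19, found in blood mononuclear cells but also in many tissues, was called lower too. MMP9 (2 and 4 counts) and MMP12 (3 and 2 counts) were not called. The 6 neutrophil markers held 279 and 90 counts, with 3 above 0 in log2 fold change and 3 below. S100A8 had 95 and 8 of these counts and S100A9 149 and 29, and both were called higher. CSF3R (6 and 13), S100A12 (20 and 30), MPO (9 and 7) and CXCR2 (0 and 3) were not called. Of 8 fibroblast markers 7 were above 0 (6 with total counts) and 2, COL1A1 and COL3A1, were called higher, with sums of 863683 and 400914 counts. COL1A1 (323285 and 148046) and COL3A1 (405713 and 154733) held most of these counts and are also in the list of ADAMTS substrates below. PDGFRA was the marker below 0, at -0.48, and DCN was at 0.04. LUM, THY1, FAP and PI16 ran from 0.55 to 1.00 and were not called. The log2 fold change of the fibroblast sum, which rests largely on these 2 collagens, was 0.99 (0.98 to 0.99). That of the fat cell sum, over 6 markers, was -0.30 (-0.32 to -0.27). All 6 fat cell markers were counted in both libraries, 2 of them above 0 (1 with total counts) and 4 below. FABP4, a fatty acid carrier, was called lower at -1.06, and CIDEC, a lipid droplet protein, was at 0.28 and was not called.

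Beyond the members, 12 lists covered partners, other matrix proteases, inhibitors and substrates. They held 76 genes with a count, of which 6 were called higher and 13 lower. Over all genes with a count, 4.37% were called higher and 8.13% lower, and these shares also stand beside each list below. For the plasminogen system, which makes plasmin and so activates MMPs, 0 of 7 genes were called higher and 1 was called lower. This was PLAUR, the urokinase receptor, with 142 counts in steers against 265 in bulls, at -1.02 (-1.33 to -0.72). Of 12 cathepsins, 3 were called lower, namely CTSC at -1.41, CTSS at -1.68 and CTSW, a gene of cytotoxic lymphocytes, at -3.45. CTSK, which cuts collagen, had 7013 and 4339 counts and was at 0.57.

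Among 4 cystatins with a count, the inhibitors of cathepsins, CST6 was called higher at 1.12 (0.94 to 1.30), though at 0.88 with total counts it was not, and CST7, a leukocyte cystatin, was called lower at -1.90. Of 5 genes in a list of other inhibitors and testicans 2 were called lower, the testicans SPOCK1, with 13 and 67 counts, and SPOCK2, with 122 and 311. SPOCK2 is known to counter the inhibition of membrane-type MMPs by other testicans and is not itself counted as an inhibitor. RECK, a membrane inhibitor of MMPs, was at 0.49 and A2M, the general protease trap alpha-2-macroglobulin, at -0.22. None of the 4 proprotein convertases, which remove the propeptides of membrane MMPs and ADAMs, was called, and FURIN was at -0.25. In the astacin list of 6 genes, PCOLCE, the enhancer of procollagen C-proteinase, was called higher with 27778 counts in steers against 10364 in bulls, at a log2 fold change of 1.30 (1.27 to 1.33). BMP1, that proteinase itself, was at 0.45. Of 4 serine proteases of matrix and cell surface none was called, and HTRA1 was at 0.73.

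For the partners that guide ADAM17 and ADAM10 to the cell surface, 2 of 8 genes were called lower, RHBDF2 at -1.15 (-1.52 to -0.79) and TSPAN33 at -3.40 (-4.90 to -2.19). Of 10 substrates of the sheddases with a count, 0 were called higher and 3 were called lower. Among them, HBEGF, a growth factor released by shedding, had 28 and 75 counts and IL6R, the interleukin-6 receptor, 273 and 558. Of 11 substrates of ADAMTS enzymes with a count, 3 were called higher and 1 lower. FBN2, a fibrillin, was at 1.91 (1.75 to 2.08), COL3A1 at 1.27 and COL1A1 at 1.00, and the last of these was not called with total counts (0.77) or TMM factors (0.99). COMP, cartilage oligomeric matrix protein, had 4459 counts in steers against 23516 in bulls and was at -2.52 (-2.57 to -2.47). TNMD, a tendon marker, had 58 and 696 counts in the same libraries, and its part in the value of COMP was not tested. Neither gene for glycosylation of thrombospondin repeats was called, with POFUT2 at 0.41. Of 3 MMP partners, BSG, which induces MMPs, was called higher at 1.07 (1.02 to 1.11), though not with total counts (0.83), and CD44, a docking site for MMP9, was at -0.31.

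**Figure D5:**
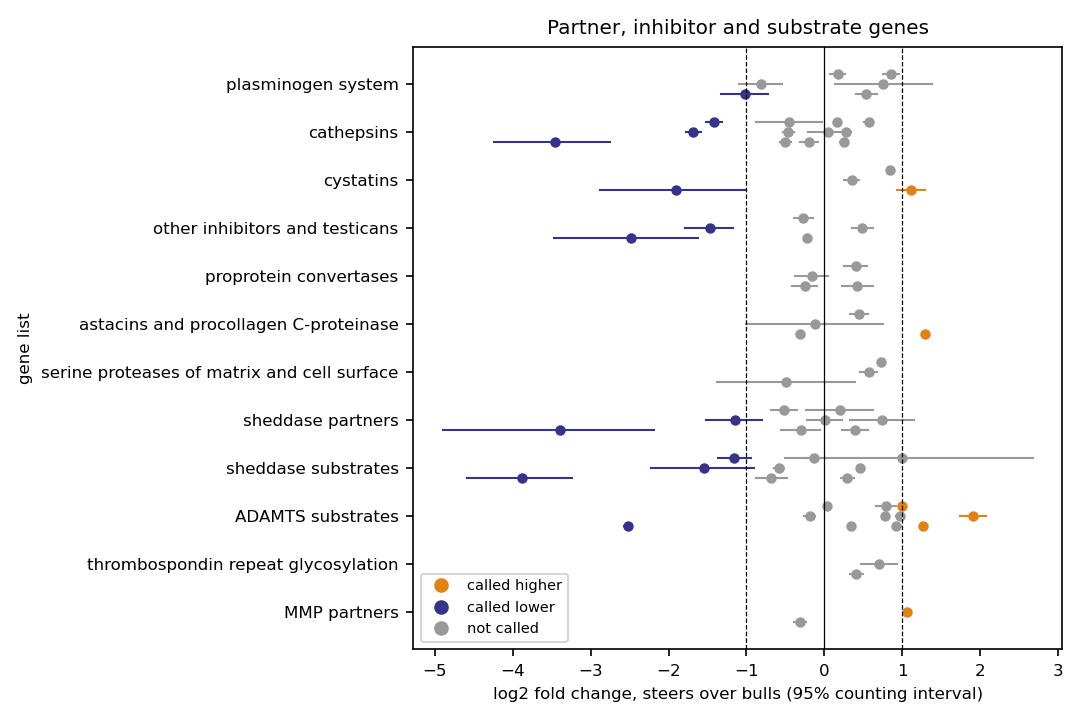
Log2 fold changes (steers over bulls, horizontal axis) with 95% counting intervals for the genes of 12 lists of partners, inhibitors, other proteases and substrates with at least 10 counts over both libraries, 1 point per gene. Orange points were called higher and blue points lower; those of the sheddase substrates and partners that were called lie to the left, and in the ADAMTS substrates COMP lies at -2.52 while FBN2 lies at 1.91.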

How the data were processed

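The mRNA values are raw read counts per gene symbol, as deposited by the authors, who removed adaptors and low-quality reads and aligned the rest to the bovine genome (Bos 4.6.1) with MapSplice. The counting program, annotation and use of strand are not given in the sources used here. The submitters' processing notes name BWA and the human build GRCh37.p13. The small RNA table (4 columns) holds no member and was not used here. Libraries were grouped by their titles, CM or IM.

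Size factors came from medians of ratios, and scaling and tests were run in Python 3.11.15 with numpy 2.4.6 and scipy 1.17.1. The exact binomial p is the smaller tail doubled. The floor for a count of 0 is 3 counts in that library, and medians over genes use a prior of 0.5 counts. EdgeR 4.0.16 gave TMM factors and exact tests with assumed coefficients of variation of 0.1, 0.2 and 0.4. Intervals of ratios between 2 members use a normal approximation to counting error. The test was checked on simulated counts that held counting error only. They had no spread between animals or pools, so the check cannot show how the test behaves with such spread. Members and lists were chosen with earlier results of these data known. Named are all called members, all TIMP genes, the members with most counts, examples of each role, and called genes of each list. The lists, written from general knowledge, hold partners, substrates and 11 sets of cell type markers. Results of a few list genes are left out of the text.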

Additional observations from a re-analysis of the deposited data

How the results depend on the processing

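No paired analysis was possible because each group has 1 mRNA library. For the same reason no library could be left out, and edgeR's quasi-likelihood test and DESeq2 have no residual degrees of freedom. Median log2 fold changes of all genes with counts in both libraries were at -0.24 with total counts, -0.02 with TMM factors and 0.02 with upper-quartile scaling. Under TMM factors and upper-quartile scaling the same 14 members were called as in the report, and with total counts 13 of them, with ADAM22 (-1.08) in place of MMP23B (0.91).

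Of the 58 members with a count, those called higher or lower numbered 1 and 1 with an assumed coefficient of variation of 0.4. With no fold threshold they numbered 18 and 16. With the 2-fold threshold alone, 14 were higher and 11 lower. Of the lower calls, 4 were left among the 39 members with at least 10 counts in each library. Among the 34 with at least 100 over both, a filter chosen after seeing the data, 3 were left. Under either filter 6 were called higher, and both filters drop genes near 0 in steers. Of all 17752 genes with a count, 368 were called higher and 762 lower with an assumed coefficient of variation of 0.2. These were 52 and 93 with 0.4, 2317 and 2912 with 2-fold alone, and 3535 and 3254 with no fold threshold. They numbered 345 and 698 of the 10464 genes with at least 100 counts. With the interval wholly past 2-fold, also chosen after seeing the data, they numbered 376 and 784 of 17752. Of the 12787 genes with at least 10 counts in each library, 458 were called higher and 973 lower.

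With total counts the summed log2 fold changes were -0.33 for ADAM, 0.52 for ADAMTS, -0.13 for ADAMTSL, 0.44 for MMP and -0.069 for TIMP. Without the member of most counts they were -0.26 for ADAM, 0.70 for ADAMTS, 0.016 for ADAMTSL, 0.16 for MMP and 0.46 for TIMP. Total counts turned the sign of ADAM15 (-0.057), ADAMTS1 (-0.020), ADAMTSL4 (-0.079), TIMP2 (-0.19), ADAMTS3 (-0.053) and MMP11 (-0.027), none of them called. The cause was not tested. Of the 13 members with 1 to 9 counts ADAMTS20 was called, and for ADAM2 and MMP27 the counting interval lay above 0 without a call.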

Other observations

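Other cell type markers in the same libraries had these sums. The 8 skeletal muscle markers had 28218 counts in steers and 37924 in bulls, with MYH7, the slow fibre myosin, called lower at -2.23 and MYH1 called higher at 1.15. The 6 endothelial markers had 9625 and 9043 counts and the 5 markers of pericytes and smooth muscle 12844 and 13347, with no gene called in either list by the exact binomial test. The 5 epithelial markers had 246 and 35 counts, KRT8 with 148 and 7 of them. The B lymphocyte markers had 24 and 93 counts, with MS4A1 and CD79B at 0 in both libraries. Of the cartilage and tendon markers, COL2A1 (30 and 113 counts) and TNMD were called lower and ACAN, with 1556 and 825 counts, was not called.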
